A study of Mus musculus with 10 samples.

Results

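The genotype by DSS interaction asks of each gene whether ERdj5-KO colon answered dextran sulfate sodium (DSS) differently from wild-type (WT) colon. It is the response of KO mice (DSS-treated minus untreated KO) minus the response of WT mice (DSS-treated minus untreated WT), on the log2 scale. All 4 groups of the study enter it, so all 10 of its 10 libraries were used: 2 from untreated and 3 from DSS-treated WT mice, and as many of each kind from KO mice. Of 29320 genes in the deposited table, 20472 had enough reads to be tested. The interaction can equally be written as the KO minus WT difference in DSS-treated mice minus the KO minus WT difference in untreated mice, and this second reading shows how much of it was present before treatment.

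The mice were 8-week-old females whose colon RNA was taken on Day 5. Treated mice had 2% DSS in their drinking water for 5 days, and control mice of each genotype had none. WT mice were C57BL/6 animals bought from a vendor, and the KO line, deleted for Dnajc10, came from a repository. The study's methods say that mice were bred in its own animal facility but not whether KO and WT mice were littermates, so genotype and source of the mice cannot be told apart. The labels tie no library to a single mouse, so the p-values measure only the spread between these libraries.

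DSS is a sulfated polysaccharide that injures the lining of the colon, lets bacteria reach the tissue beneath it, and draws in neutrophils and other leukocytes. ERdj5, the protein of Dnajc10, is a disulfide reductase of the endoplasmic reticulum (ER) that works with the chaperone BiP to unfold faulty proteins for degradation. Goblet cells, which fold and secrete large amounts of mucin, depend strongly on such ER quality control, and colitis is known to be worse where it fails.

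Library size was 49689389 to 72197887 counted reads. Levels are in CPM, read counts brought to a common library size with TMM factors, and tests are from edgeR's quasi-likelihood method with p-values adjusted over all tested genes (edgeR adjusted p). A gene was called at an edgeR adjusted p under 0.05. On the first principal component (43.2% of the variance), the untreated KO libraries lay at -84.2 and -99.4, the 5 WT libraries between -37.7 and 0.56, and the DSS-treated KO libraries between 83.1 and 116. The DSS-treated WT library 3 (-33.7) lay close to the untreated WT libraries (-37.7 and -36.0). The deleted gene Dnajc10 (gene ID 66861, chromosome 2, 80315446 to 80354055, GRCm38) was at 113 and 132 CPM in untreated WT, 139.7, 138 and 121 CPM in DSS-treated WT, 18.4 and 20.03 CPM in untreated KO and 25.6, 23.9 and 30.4 CPM in DSS-treated KO libraries. Every KO library was below every WT library, and the response of Dnajc10 to DSS did not pass the interaction test (log2 0.35, SE 0.18, edgeR adjusted p = 0.177). The reads that remained in KO libraries cannot be placed within the gene. In the 10 libraries, summed colon position genes were at 1102 to 1376 CPM and summed small intestine genes at 40.3 to 204 CPM. Summed goblet cell genes were at 5380 to 14300 CPM and summed smooth muscle genes at 1286 to 16059 CPM.

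The response to DSS differed between the genotypes in 5482 genes, 26.8% of those tested. It was higher in KO mice in 2830 genes (13.8%) and lower in 2652 (13%). The interaction was more than 2-fold in 3551 and more than 4-fold in 1708 of the called genes. The called genes included 4936 of 16035 protein-coding genes (30.8%) and 321 of 2474 long non-coding RNA genes (13.0%). The median interaction over all tested genes was 0.01 on the log2 scale, and its median size was 0.64.

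The WT response was small, so the interaction was made up mainly of the KO response. In WT mice 5 genes were called as changed by DSS (0.0244% of those tested, 0.0195% higher and 0.00488% lower, with 1435 genes at an unadjusted p under 0.05, and 173 genes called by DESeq2). In KO mice 9300 genes were called (45.4%, with 23.1% higher and 22.3% lower). The median size of the fitted response over all tested genes was 0.18 on the log2 scale in WT and 0.62 in KO mice. Among the genes called in the interaction, it was 0.17 in WT and 1.25 in KO mice. The WT and KO responses rest on different libraries, and each shares its libraries with the interaction.

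**Figure D1:**
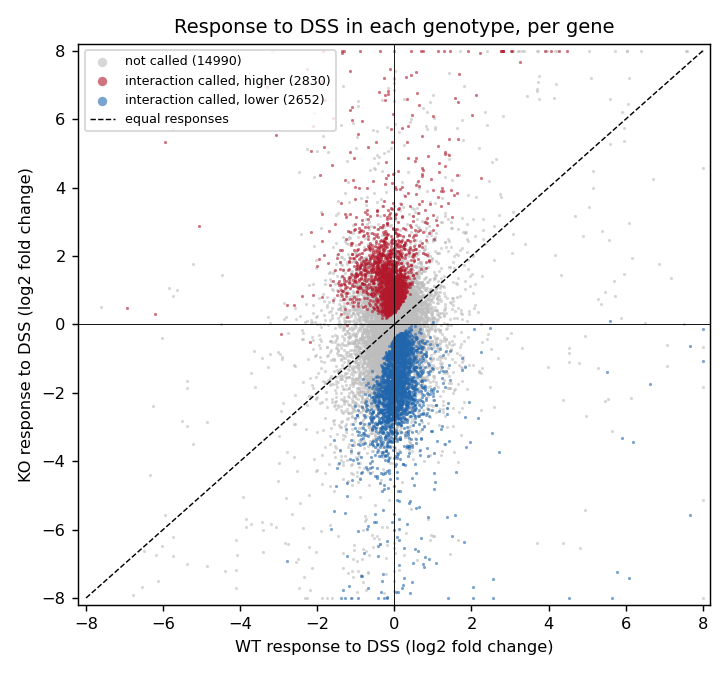
Log2 response to DSS of each tested gene in WT (x axis) and in KO mice (y axis), with genes called in the interaction in red (2830 higher) and blue (2652 lower), other genes in grey and a dashed line at equal responses. The called genes spread along the y axis and lie close to 0 on the x axis. The 77 genes past 8 on the log2 scale are drawn at the edge.

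By the signs of the fitted responses, 1966 of the 5482 genes (35.9%) moved the same way in both genotypes and further in KO, 5 moved the same way and less in KO, and 3511 (64.0%) moved in opposite directions. Over all tested genes the corresponding shares were 42.6%, 9.78% and 47.6%. The opposite directions were mostly opposite in sign only. Of the 3511 genes, 2161 (61.5%) had a WT response under 0.25 on the log2 scale, 417 had an unadjusted p under 0.05 in WT mice, and 206 had a WT response of more than 2-fold. None of the 3511 was called in both genotypes by edgeR. In 1908 of them the fitted level fell in WT and rose in KO (median WT response -0.15, median KO response 0.93), and in 1603 it rose in WT and fell in KO (0.21 and -1.37). Where both fitted responses were rises (919 genes), the medians were 0.10 in WT and 1.01 in KO, and where both were falls (1047 genes), they were -0.18 and -2.12.

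The untreated difference made up a large part of these interactions. Its share is the untreated KO minus WT difference with its sign turned, divided by the interaction. The median share was 0.44 (quartiles 0.28 and 0.62), and it was above 0.5 in 2212 of the 5482 genes (40.4%). It was at least 0.8 in 635 genes and at most 0.2 in size in 802. The median untreated KO minus WT difference was -0.42 in genes called higher and 0.78 in genes called lower, and the median difference with DSS was 0.54 and -0.93. Fitted differences had opposite signs before and with DSS in 4889 of the 5482 genes (89.2%). The untreated difference enters the interaction with a minus sign, so calling genes on the interaction favours this pattern.

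The same pattern can be read from library levels, though the genes were called on these same libraries, which favours it. In 2427 of the 5482 called genes (44.3%), all 5 WT libraries lay between the untreated KO and the DSS-treated KO libraries. Of all tested genes, 2766 (13.5%) had this order. The higher share among called genes is therefore no separate support. In 1075 of the 2427 the untreated KO libraries were lowest, and in 1352 they were highest. By edgeR adjusted p, 9.85% of all tested genes differed between untreated KO and WT mice (3.87% higher and 5.97% lower in KO) and 29.8% between DSS-treated ones. Among the genes called in the interaction, 648 were called in both, with opposite signs. In 273 of these the KO level was below WT before DSS and above it with DSS, and in 375 it was above and then below.

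**Figure D2:**
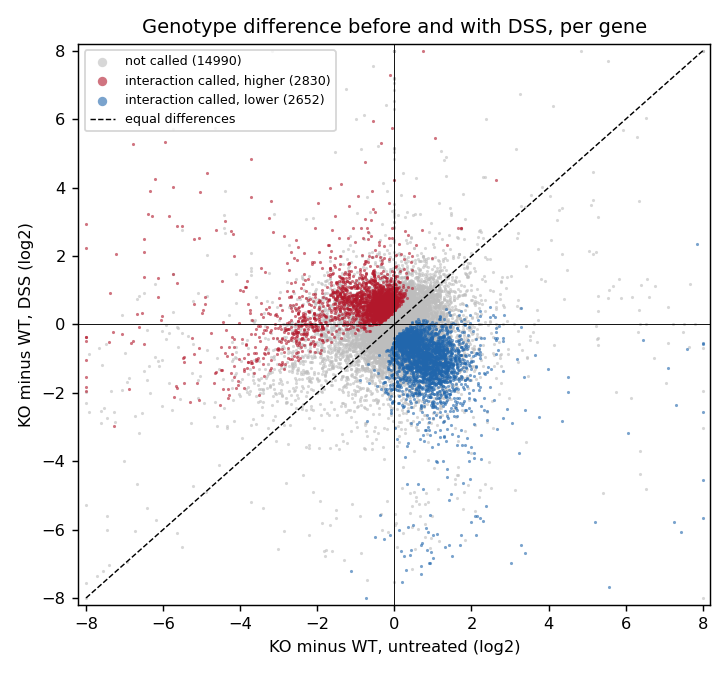
KO minus WT difference of each tested gene in untreated mice (x axis, log2) and in DSS-treated mice (y axis, log2), coloured by the interaction call. Genes called higher fill the upper left and genes called lower the lower right, on either side of the dashed line where both differences are equal, and 38 genes past 8 are drawn at the edge.

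Neutrophil markers and inflammatory cytokines and chemokines had the highest median interactions of the 40 gene lists. Of 20 tested cytokine and chemokine genes, 13 had a higher response in KO mice and 0 a lower one. The list's median interaction was 5.55 on the log2 scale, against 0.01 over all tested genes. With the 4 members at 0 in untreated KO alone set to their lower bounds, and 2 members with several groups at 0 left out, the median of the other 18 was 4.74. The list's median difference was -1.27 in untreated and 3.21 in DSS-treated mice, and its summed level was 33.0 to 36.3 CPM without and 38.0 to 68.9 CPM with DSS in WT libraries, and 15.3 to 20.03 CPM without and 274 to 746 CPM with DSS in KO libraries. Bulk RNA of the tissue was measured, so more cells of a type and more RNA per cell cannot be told apart. The number called was 7, 6 and 7 without untreated WT library 2, untreated WT library 3 and untreated KO library 3.

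Cxcl1 (gene ID 14825, chromosome 5, 90891245 to 90893121), a chemokine that attracts neutrophils, was at 0.145 and 0.230 CPM in untreated WT, 0.555, 0.496 and 0.742 CPM in DSS-treated WT, 0.119 and 0.172 CPM in untreated KO and 15.3, 8.94 and 47.6 CPM in DSS-treated KO libraries. Untreated levels of both genotypes overlapped, and every DSS-treated KO library was far above every DSS-treated WT library. Its interaction was 5.65 (SE 1.14, edgeR adjusted p = 0.00734), with an untreated share of 0.06, and it missed the threshold without untreated WT library 3 (edgeR adjusted p = 0.0578). Cxcl2 (gene ID 20310, chromosome 5, 90903899 to 90905938), its neighbor and another neutrophil attractant, was at 0.129 and 0.164 CPM in untreated WT, 2.92, 0.932 and 3.52 CPM in DSS-treated WT, 0 and 0 CPM in untreated KO and 56.3, 19.8 and 64.5 CPM in DSS-treated KO libraries. DSS-treated libraries were above untreated ones in both genotypes, and in KO mice the level with DSS was at least 1883-fold higher than the limit of 3 counts over the untreated group. Against that limit its interaction was 6.81 on the log2 scale, and the test gave an edgeR adjusted p of 0.0133. That call was lost without either untreated WT library (edgeR adjusted p up to 0.0729).

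Il1b (gene ID 16176, chromosome 2, 129364569 to 129371164), which encodes the pyrogenic cytokine IL-1β, was at 7.80 and 5.98 CPM in untreated WT, 6.55, 5.28 and 14.6 CPM in DSS-treated WT, 0.989 and 0.915 CPM in untreated KO and 112, 25.3 and 21.3 CPM in DSS-treated KO libraries. The untreated KO libraries were the lowest of the 10 and the DSS-treated KO libraries the highest, with DSS-treated KO library 1 well above the others. The interaction was 5.44 (SE 1.07, edgeR adjusted p = 0.0065), of which the untreated difference made 0.52. Ccl3 and Ccl4, chemokines that attract monocytes and T cells, had interactions of 7.41 and 9.62 (SE 1.59 and 1.71, edgeR adjusted p = 0.00953 and 0.00456), and Ccl3 missed the threshold without untreated KO library 3 (edgeR adjusted p = 0.0556). Ccl4 was at 0.0791 and 0 CPM in untreated KO against 2.48 and 3.53 CPM in untreated WT libraries, and at 36.3, 7.12 and 2.65 CPM in DSS-treated KO libraries, the lowest of which overlapped untreated WT. Il6, a cytokine of the acute phase, was at 0.0482 and 0.0657 CPM in untreated WT, 0, 0 and 0.124 CPM in DSS-treated WT, 0 and 0 CPM in untreated KO and 1.89, 0.385 and 0.610 CPM in DSS-treated KO libraries. It passed (edgeR adjusted p = 0.0398), but in only 3 of the 10 fits with a library left out (edgeR adjusted p up to 0.132). The T cell cytokine gene Il22 did not pass (edgeR adjusted p = 0.398).

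Neutrophil markers showed the same direction. Of 17 tested, 10 had a higher response in KO and 0 a lower one, with a median interaction of 5.76 (5.54 over 15 genes with 3 of them at their lower bounds and 2 left out). Their summed level was 240 to 249 CPM without and 372 to 576 CPM with DSS in WT libraries, and 363 to 384 CPM without and 754 to 1237 CPM with DSS in KO libraries. Before DSS the sum was thus higher in KO, but the median untreated difference of the 17 genes was -2.68, with 3 of them positive. Clec4e, a receptor for microbial glycolipids on myeloid cells, was at 1.13 and 0.674 CPM in untreated WT, 0.904, 1.98 and 1.47 CPM in DSS-treated WT, 0.0791 and 0 CPM in untreated KO and 19.7, 5.16 and 4.59 CPM in DSS-treated KO libraries. DSS-treated KO libraries were the highest, and untreated KO libraries lay below every WT library. Its interaction was 7.396 (SE 1.32, edgeR adjusted p = 0.00464) and remained called with each library left out. The receptor genes Fpr2 (5.76) and Csf3r (3.49), Il1r2, a decoy receptor for IL-1 (5.86), and Acod1, which makes itaconate (6.82), also passed (edgeR adjusted p = 0.00364, 0.00503, 0.00454 and 0.0111).

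S100a8 and S100a9, the subunits of calprotectin, did not pass. S100a8 was at 0.0322 and 0.0657 CPM in untreated WT, 2.08, 0.346 and 0.467 CPM in DSS-treated WT, 0 and 0 CPM in untreated KO and 185, 27.4 and 44.0 CPM in DSS-treated KO libraries. Its rise in KO was at least 3437-fold, and the interaction test gave an edgeR adjusted p of 0.196 with an SE of 5.94. S100a9 had an interaction of 8.14 (SE 3.33, edgeR adjusted p = 0.0982), and DESeq2 called both genes. Ly6g, the surface antigen used to define neutrophils, was at 167 and 142 CPM in untreated WT, 321, 217 and 285 CPM in DSS-treated WT, 349.6 and 316 CPM in untreated KO and 379, 284 and 388 CPM in DSS-treated KO libraries, and made up much of the summed level above. Untreated WT libraries were the lowest, and the other groups overlapped (interaction -0.76, edgeR adjusted p = 0.0624). Mmp9, a gelatinase of neutrophils, did not pass either and had an interaction of 2.86 (edgeR adjusted p = 0.0897).

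Of 13 NF-kB targets and regulators, 5 had a higher and 1 a lower response in KO, and 7 did not pass (median interaction 0.93). The inhibitor gene Nfkbia was at 102 and 90.7 CPM in untreated WT, 143, 115 and 145 CPM in DSS-treated WT, 70.5 and 65.9 CPM in untreated KO and 188, 220.4 and 439 CPM in DSS-treated KO libraries. Its interaction was 1.57 (SE 0.43, edgeR adjusted p = 0.0251). Icam1, an adhesion molecule for leukocytes, had an interaction of 2.41, Nfkbiz, a nuclear cofactor, one of 2.51, and Tnip1, a brake on the pathway, one of -1.003 (edgeR adjusted p = 0.00197, 0.00235 and 0.0194). Of these 13 genes, 2 were called as higher without untreated WT library 3, untreated KO library 2 or untreated KO library 3, and 3 without untreated WT library 2 or DSS-treated WT library 3.

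The letters GGANTTTCC, the core to which NF-kB dimers bind, were searched on both strands of RefSeq promoter windows (250 bases before to 50 after the start, GRCm38.p6). They stood in the windows of 4 of 15 inflammatory genes and 6 of 10 NF-kB targets with a window, in 2.49% of genes called higher, 2.15% of genes called lower and 1.67% of all tested genes with a window. The stretches upstream of 4 genes whose interaction was called are shown, 5′ to 3′ in the direction of the gene, with the matching letters in capitals.
Cxcl1 (chr5:90891135-90891223, plus strand): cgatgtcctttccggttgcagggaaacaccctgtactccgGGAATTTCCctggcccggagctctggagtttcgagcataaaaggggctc
Cxcl2 (chr5:90903763-90903851, plus strand): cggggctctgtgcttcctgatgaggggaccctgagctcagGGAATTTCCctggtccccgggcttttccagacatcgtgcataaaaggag
Il6 (chr5:30013031-30013113, plus strand): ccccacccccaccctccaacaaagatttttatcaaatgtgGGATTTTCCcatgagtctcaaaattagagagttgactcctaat
Nfkbia (chr12:55492777-55492865, minus strand): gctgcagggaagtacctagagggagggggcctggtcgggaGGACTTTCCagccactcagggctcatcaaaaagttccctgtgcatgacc
The match lies 70 bases before the start in Cxcl1, 96 in Cxcl2, 43 in Il6 and 178 in Nfkbia. A match describes the letters and is not evidence of binding.

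Antimicrobial and acute-phase genes had the highest median WT response of the 40 lists. Of 14 tested, 7 had a higher response in KO and 0 a lower one, with a median response of 1.54 in WT and 3.85 in KO mice and a median interaction of 1.70. The number called was 4 without untreated KO library 2. Their summed level was 2932 to 3374 CPM without and 4880 to 6830 CPM with DSS in WT libraries, and 4218 to 4232 CPM without and 4726 to 7718 CPM with DSS in KO libraries, so the DSS-treated groups overlapped in the sum. Nos2 (gene ID 18126, chromosome 11, 78920787 to 78960226), the inducible enzyme of nitric oxide synthesis, was at 8.96 and 12.0 CPM in untreated WT, 192, 91.3 and 192 CPM in DSS-treated WT, 1.25 and 0.844 CPM in untreated KO and 376, 339 and 666 CPM in DSS-treated KO libraries. All DSS-treated libraries of a genotype lay above all its untreated ones, and untreated KO lay below untreated WT. It was the gene called in both responses by edgeR, 3.92 in WT (SE 0.44, edgeR adjusted p = 0.0232) and 8.80 in KO (SE 0.57, edgeR adjusted p = 3.51e-05). Its interaction of 4.88 (SE 0.59, edgeR adjusted p = 0.00143) was -3.35 before DSS turned in sign plus 1.54 with DSS, an untreated share of 0.69.

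The resistin-like gene Retnlb, a goblet cell product that acts on bacteria, was at 16.1 and 20.4 CPM in untreated WT, 100.3, 63.3 and 56.6 CPM in DSS-treated WT, 1.27 and 1.99 CPM in untreated KO and 64.3, 125 and 154 CPM in DSS-treated KO libraries. DSS-treated libraries of both genotypes overlapped, above untreated WT and far above untreated KO, with an interaction of 4.11 (SE 0.55, edgeR adjusted p = 0.00176). Saa3, an acute-phase gene, was at 3.18 and 2.74 CPM in untreated WT, 10.5, 26.2 and 26.5 CPM in DSS-treated WT, 0.119 and 0.458 CPM in untreated KO and 415, 99.0 and 33.1 CPM in DSS-treated KO libraries. Untreated KO libraries were the lowest and DSS-treated KO libraries the highest, with an interaction of 6.37 (SE 1.499, edgeR adjusted p = 0.0138) that was lost without either untreated KO library (edgeR adjusted p up to 0.0623). Lcn2, an iron-sequestering antimicrobial gene, was at 0.788 and 1.25 CPM and 0.573 and 1.42 CPM in untreated WT and KO, 1.46, 1.74 and 1.21 CPM in DSS-treated WT and 63.5, 12.9 and 6.10 CPM in DSS-treated KO libraries. Here the untreated groups overlapped (share 0.00), and the interaction of 4.24 (SE 1.24, edgeR adjusted p = 0.0317) remained called in 3 of 10 fits with a library left out (edgeR adjusted p up to 0.115). The Reg3 genes of antibacterial lectins did not pass: Reg3b and Reg3g had interactions of 0.93 and 1.75 (edgeR adjusted p = 0.479 and 0.247).

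Matrix proteases had a higher response in KO in 7 of 12 genes and a lower one in 0 (median interaction 2.65, or 2.45 without Mmp8, which was at 0 in both untreated groups). The collagenase gene Mmp13 was at 2.28 and 2.12 CPM in untreated WT, 0.872, 1.19 and 1.17 CPM in DSS-treated WT, 0.910 and 1.36 CPM in untreated KO and 15.9, 9.26 and 18.4 CPM in DSS-treated KO libraries. Untreated KO and DSS-treated WT libraries lay below untreated WT, and DSS-treated KO libraries lay above all others (interaction 4.70, SE 0.46, edgeR adjusted p = 0.000813). The stromelysin gene Mmp10 (3.98), the macrophage elastase gene Mmp12 (3.24) and Plaur, the urokinase receptor gene (3.19), followed (edgeR adjusted p = 0.00171, 0.0118 and 0.00193). Timp1, an inhibitor of these proteases, had an interaction of 2.25 and did not pass (edgeR adjusted p = 0.128).

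T cell and interferon-gamma genes also had higher responses in KO mice, but from the other side. All 18 markers of T cells and intraepithelial lymphocytes had a lower KO than WT level before DSS (5.97% of all tested genes were called lower there), with a median difference of -3.89. With DSS the median difference was -1.53, and 14 were still lower. The interaction was called higher in 15 of the 18 (median 2.28), with a median response of -1.26 in WT and 1.10 in KO mice. Their summed level was 260 to 331 CPM without and 88.8 to 156 CPM with DSS in WT libraries, and 16.9 to 27.1 CPM without and 29.9 to 67.6 CPM with DSS in KO libraries. DSS-treated KO libraries thus stayed below every WT library although the KO response was the higher. The number called was 6 without untreated WT library 2 or untreated KO library 3, 9 without untreated WT library 3.

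Ccl5 (gene ID 20304, chromosome 11, 83525778 to 83530518), a chemokine made by T cells, was at 59.3 and 59.4 CPM in untreated WT, 15.6, 30.3 and 27.7 CPM in DSS-treated WT, 1.29 and 1.34 CPM in untreated KO and 22.8, 10.1 and 4.06 CPM in DSS-treated KO libraries. The untreated KO libraries were the lowest, and DSS-treated KO libraries overlapped DSS-treated WT. Its interaction of 4.51 (SE 0.83, edgeR adjusted p = 0.00523) had an untreated share of 1.22, so the genotype difference with DSS (-0.98, edgeR adjusted p = 0.153) still pointed the other way and did not pass. Cd8a, the co-receptor of cytotoxic T cells, was at 24.2 and 18.8 CPM in untreated WT, 6.77, 10.3 and 11.8 CPM in DSS-treated WT, 1.21 and 1.001 CPM in untreated KO and 1.96, 3.13 and 1.83 CPM in DSS-treated KO libraries, with an interaction of 2.23 (edgeR adjusted p = 0.00606). The granzyme genes Gzma and Gzmb, effectors of cytotoxic cells, had interactions of 3.24 and 3.59 (edgeR adjusted p = 0.0093 and 0.00227).

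All 14 interferon-gamma GTPases and chemokines were lower in untreated KO mice as well (median -3.22). In the interaction 6 were called higher and 8 did not pass (median 2.23). Cxcl9 (gene ID 17329, chromosome 5, 92321331 to 92328079), a chemokine induced by interferon-gamma, was at 64.1 and 70.2 CPM in untreated WT, 13.9, 32.5 and 51.0 CPM in DSS-treated WT, 0.850 and 0.658 CPM in untreated KO and 17.4, 16.3 and 31.2 CPM in DSS-treated KO libraries. In WT mice DSS-treated libraries lay below untreated ones, and in KO mice above. Its interaction was 5.90 (SE 0.73, edgeR adjusted p = 0.00155, share 1.10), with -6.49 before DSS (edgeR adjusted p = 0.00134) and -0.59 with DSS (edgeR adjusted p = 0.294). Ifng itself was at 2.85 and 2.23 CPM in untreated WT, 0.619, 1.32 and 2.27 CPM in DSS-treated WT, 0.0395 and 0 CPM in untreated KO and 1.13, 0.352 and 2.02 CPM in DSS-treated KO libraries, an interaction of 6.79 (SE 1.39, edgeR adjusted p = 0.00787, share 1.04). The list's number called was 1 or 2 without any of the untreated libraries or without DSS-treated WT library 3.

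Antiviral interferon-stimulated genes were low in KO mice in both treatments. They were lower in untreated KO in 18 of 21 genes and lower with DSS in 19 (14.9% of all tested genes were called lower with DSS), with medians of -2.65 and -1.81. In the interaction 1 of 21 was called and 19 had a positive value, with a median of 0.91 (0.45 to 1.97 with each library left out). The number called was 5 without DSS-treated KO library 1, 4 without untreated KO library 3, 2 without DSS-treated WT library 4 and 0 or 1 without any of the others. Isg15, a ubiquitin-like protein of the antiviral response, was at 227 and 187 CPM in untreated WT, 41.4, 98.2 and 144 CPM in DSS-treated WT, 5.62 and 23.9 CPM in untreated KO and 13.7, 35.7 and 29.9 CPM in DSS-treated KO libraries. WT libraries were higher than KO libraries with and without DSS, and the interaction did not pass (1.96, SE 0.89, edgeR adjusted p = 0.132).

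The interferon-stimulated response element, searched on both strands as GAAA, any 2 bases and GAAA again, stood in the windows of 9 of 10 interferon-gamma genes and 9 of 14 antiviral genes with a window. It was found in 5.86% of genes called higher, 3.3% of genes called lower and 3.88% of tested genes with a window. The first 2 stretches belong to genes called in the interaction and the other 2 to genes that were lower in KO without passing it, and all 4 hold the element (capitals, where overlapping matches run on).
Cxcl10 (chr5:92349053-92349139, minus strand): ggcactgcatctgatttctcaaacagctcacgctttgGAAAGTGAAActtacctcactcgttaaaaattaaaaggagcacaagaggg
Tgtp1 (chr11:48992274-48992363, minus strand): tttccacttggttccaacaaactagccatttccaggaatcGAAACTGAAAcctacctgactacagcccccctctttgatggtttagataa
Isg15 (chr4:156200847-156200936, minus strand): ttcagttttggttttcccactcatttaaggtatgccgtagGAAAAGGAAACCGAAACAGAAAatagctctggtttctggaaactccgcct
Oas3 (chr5:120777685-120777774, minus strand): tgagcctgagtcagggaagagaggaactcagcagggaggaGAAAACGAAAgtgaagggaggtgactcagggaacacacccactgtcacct
Cxcl10 had an interaction of 2.64 and Tgtp1 one of 3.80 (edgeR adjusted p = 0.0387 and 0.0379), against 1.96 for Isg15 and 1.72 for Oas3 (edgeR adjusted p = 0.134). Reads of Tgtp1 and its near-identical neighbor Tgtp2 may have been split between them.

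Of 14 macrophage and monocyte markers 5 were called higher (median 1.23), among them Ccr2, the receptor by which monocytes enter tissue (2.76, edgeR adjusted p = 0.00329), and Itgam (2.03, edgeR adjusted p = 0.0387). The complement genes C1qa, C1qb and C1qc of resident macrophages had interactions of 1.34, 1.28 and 1.15 and did not pass (edgeR adjusted p = 0.0556, 0.0961 and 0.104). The number was 3 in 7 of the 10 fits with a library left out and 9 without DSS-treated KO library 4. Of 9 MHC class II genes 1 was called higher in edgeR, against 13.8% of all tested genes, and 6 in DESeq2 (median 1.53). The edgeR count was 0 without untreated WT library 2 or 3, DSS-treated WT library 3, DSS-treated KO library 2 or untreated KO library 3. It was 4 when DSS-treated WT library 4 or DSS-treated KO library 1 was left out. B cell markers had a median interaction of 2.32, which ran from 0.59 without untreated WT library 2 to 4.08 without untreated KO library 2, and 0 of 12 passed in edgeR, with 1 at an unadjusted p under 0.05, and 0 in DESeq2. Their summed level was 56.5 to 328 CPM within untreated WT alone, and 24.9 to 136 CPM within untreated KO. Of 7 tested mast cell genes 3 were called higher and 1 lower, and 4 had a positive interaction (median 1.78). Higher were the mast cell protease genes Mcpt1, Mcpt2 and Cma1 (2.50, 3.46 and 2.43, edgeR adjusted p = 0.00845, 0.00235 and 0.0107). Kit, the stem cell factor receptor of mast cells and of pacemaker cells in the gut wall, was called lower (-1.36, edgeR adjusted p = 0.000813). With DSS, 0 of the 7 lay above WT in KO mice (median difference -0.87). The summed mast cell level was 51.2 to 55.3 CPM without and 46.0 to 61.3 CPM with DSS in WT libraries. It was 38.8 to 38.9 CPM without and 26.5 to 29.2 CPM with DSS in KO libraries.

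**Figure D3:**
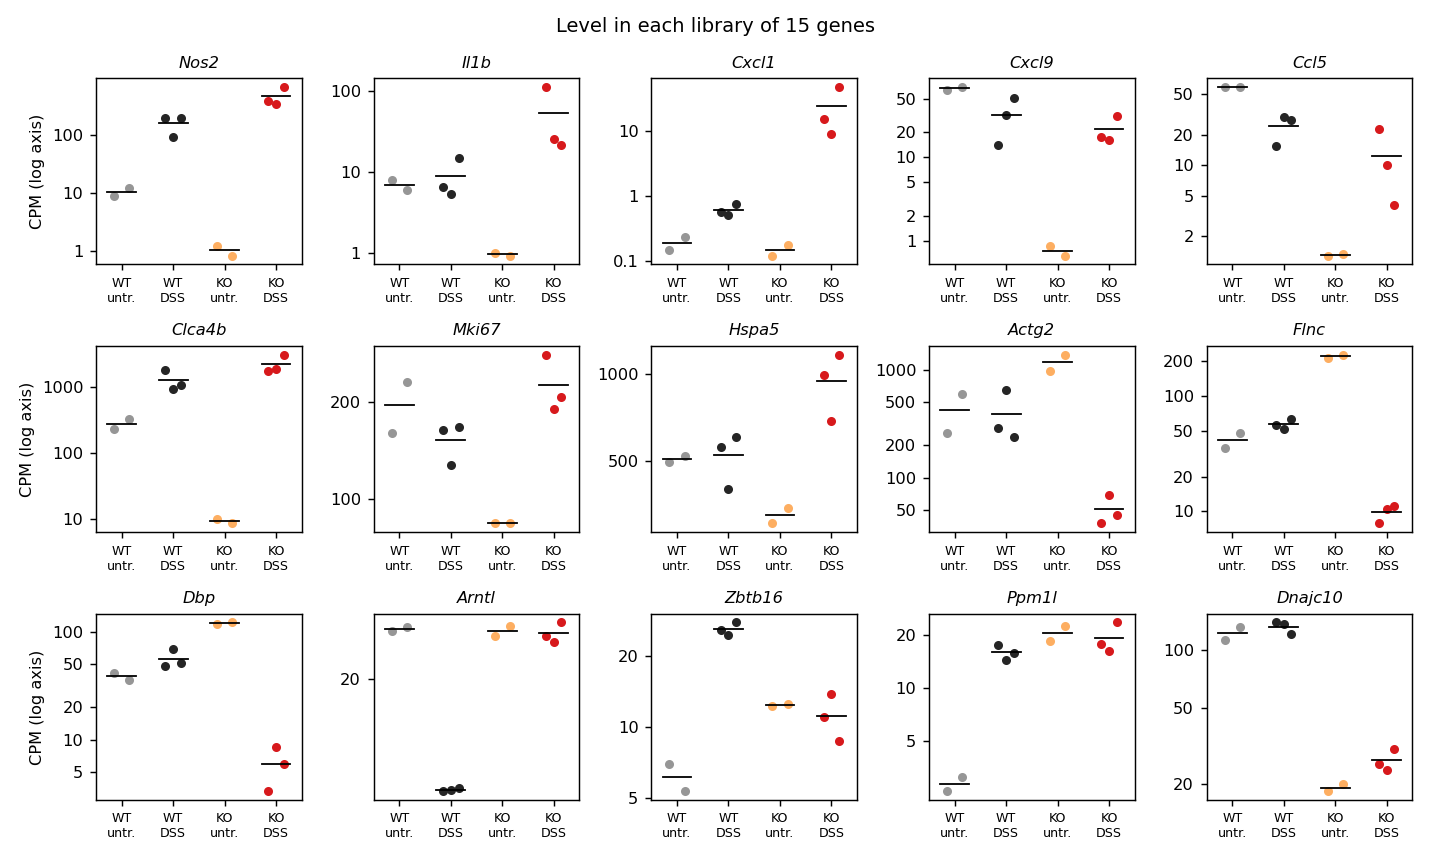
Level of 15 genes in each library, in CPM on log axes that do not start at 0, by genotype and treatment (2 libraries without and 3 with DSS for each genotype), with a line at the mean. Il1b, Clca4b and Mki67 were lowest in untreated KO and highest in mean in DSS-treated KO, Flnc and Dbp were highest in untreated KO and lowest in DSS-treated KO, and Arntl was low in DSS-treated WT alone.

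Proliferation genes were called higher in 21 of 21, with a median interaction of 2.08. Their median difference was -1.21 before DSS (12 called lower) and 0.89 with DSS (16 called higher), and their median response was -0.28 in WT and 1.76 in KO mice. Mki67, a marker of dividing cells, was at 160.1 and 230.0 CPM in untreated WT, 163, 128 and 167 CPM in DSS-treated WT, 83.9 and 84.2 CPM in untreated KO and 280.2, 191 and 208 CPM in DSS-treated KO libraries. The untreated KO libraries were the lowest of the 10, and the DSS-treated KO libraries overlapped untreated WT. Its interaction was 1.78 (SE 0.29, edgeR adjusted p = 0.00336). The largest in the list were Rrm2, a subunit of ribonucleotide reductase (3.33), and Birc5, which acts at the chromosome passenger complex (3.23), with edgeR adjusted p = 0.00256 and 0.000813. Summed levels were 1010 to 1465 CPM without and 852 to 1215 CPM with DSS in WT libraries, and 528 to 598 CPM without and 1566 to 2546 CPM with DSS in KO libraries.

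Genes of ER folding and degradation, the process in which ERdj5 works, were called higher in 16 of 21 (median interaction 1.15) and lower in 0, and in 15 to 18 with each library left out in turn. Their median response was 0.07 in WT and 1.18 in KO mice. Hspa5 (gene ID 14828, chromosome 2, 34772090 to 34776529), which encodes BiP, was at 493 and 519 CPM in untreated WT, 559, 399.9 and 604 CPM in DSS-treated WT, 303 and 344 CPM in untreated KO and 987, 685 and 1162 CPM in DSS-treated KO libraries. Untreated KO libraries were below and DSS-treated KO libraries above every WT library, and the WT groups overlapped. Its interaction was 1.504 (SE 0.33, edgeR adjusted p = 0.01, share 0.43). For 15 of the 21 genes all WT libraries lay between the KO groups with untreated KO lowest. This order held in 6.01% of all tested genes and in 1075 of the 2830 genes called higher. A call in the interaction favours it, so the order is no separate support.

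The ER chaperone gene Hsp90b1 (1.57), the oxidoreductase gene Pdia6 (1.48), the secreted stress factor Manf (1.81) and the nucleotide exchange factor Hyou1 (1.48) also passed (edgeR adjusted p = 0.00247, 0.00157, 0.00191 and 0.00658). Ero1l, the ER oxidase gene, was at 67.01 and 65.96 CPM in untreated WT, 84.1, 73.0 and 82.0 CPM in DSS-treated WT, 58.6 and 66.8 CPM in untreated KO and 154, 155 and 262 CPM in DSS-treated KO libraries. Its untreated groups overlapped (share 0.06), and its interaction was 1.34 (SE 0.30, edgeR adjusted p = 0.0113, and 0.0503 without untreated KO library 2). Xbp1, a transcription factor of this response, did not pass (0.77, SE 0.29, edgeR adjusted p = 0.0777), nor did Dnajb9, Herpud1, Sel1l and Edem1, whose products act in degradation from the ER (-0.02, 0.27, 0.50 and 0.41; edgeR adjusted p = 0.977, 0.392, 0.0595 and 0.112).

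Of 16 targets of ATF4 and CHOP, 10 were called higher and 1 lower (median 1.20). Among those that passed were genes of amino acid supply: the serine synthesis genes Psat1 (3.18) and Phgdh (2.82), the cystine carrier Slc7a11 (2.98) and Asns, asparagine synthetase (1.78), with edgeR adjusted p = 0.00161, 0.00237, 0.0227 and 0.0029. Atf4 itself was at 145 and 168 CPM in untreated WT, 139, 131 and 134 CPM in DSS-treated WT, 143 and 143 CPM in untreated KO and 225, 210.1 and 275 CPM in DSS-treated KO libraries, an interaction of 0.95 (SE 0.18, edgeR adjusted p = 0.00605). Ddit3, which encodes CHOP, was at 14.9 and 11.9 CPM in untreated WT, 11.2, 12.8 and 12.0 CPM in DSS-treated WT, 14.9 and 13.3 CPM in untreated KO and 8.81, 11.2 and 10.7 CPM in DSS-treated KO libraries, within a narrow range in all 10 (interaction -0.30, SE 0.23, edgeR adjusted p = 0.349). Atf3 and Ppp1r15a, other members of the stress response, did not pass (-0.74 and -0.05, edgeR adjusted p = 0.339 and 0.948).

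Heat shock genes went both ways, with 3 called higher and 5 lower of 12. The mitochondrial chaperone genes Hspd1 and Hspe1 and the cytosolic Hsp90aa1 were called higher (1.60, 1.52 and 1.10, edgeR adjusted p = 0.00802, 0.00172 and 0.0279). The small heat shock genes Hspb1, Hspb8 and Cryab, which are also abundant in muscle, and the inducible Hspa1a and Hspa1b were called lower (-3.10, -2.32, -2.41, -1.59 and -1.78, edgeR adjusted p = 0.000755, 0.00331, 0.00736, 0.00237 and 0.00247). Hspa1a and Hspa1b are near-identical copies whose reads may have been split. Hsph1 did not pass (0.97, edgeR adjusted p = 0.0729).

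Epithelial lists gave calls in both directions. Of 16 goblet cell genes 2 were called higher and 3 lower (median -0.24), near the 13.8% and 13% of all tested genes. With DSS, 9 of the 16 were called lower in KO than in WT and 0 higher, against 14.9% each of all tested genes. The summed goblet level was 13577 to 14207 CPM without and 12018 to 14300 CPM with DSS in WT libraries. In KO libraries it was 10451 to 12941 CPM without and 5380 to 8999 CPM with DSS. Muc2, the main mucin gene, was at 2566 and 2818 CPM in untreated WT, 3125, 3086 and 3202 CPM in DSS-treated WT, 1624 and 1830.0 CPM in untreated KO and 1417, 2029 and 1844 CPM in DSS-treated KO libraries. The KO libraries lay below the WT libraries in both treatments, and the interaction did not pass (-0.19, SE 0.23, edgeR adjusted p = 0.569). Clca1, a protease of the mucus, was at 2363 and 1963 CPM in untreated WT, 1364, 1256 and 1895 CPM in DSS-treated WT, 2661 and 3696 CPM in untreated KO and 218, 511 and 484 CPM in DSS-treated KO libraries. It was highest in untreated KO and lowest in DSS-treated KO libraries, with an interaction of -2.45 (SE 0.49, edgeR adjusted p = 0.00682) that remained called with each library left out. Klk1 and Ern2, a kallikrein and the goblet cell form of the ER stress sensor IRE1, were called lower (-2.42 and -1.17, edgeR adjusted p = 0.00357 and 0.00256), and Agr2, a disulfide isomerase needed for mucin, was called higher (1.15, edgeR adjusted p = 0.00561).

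Among 17 colonocyte genes 4 were called lower, the carbonic anhydrase genes Car1, Car2 and Car4 and the chloride exchanger gene Slc26a3 (-2.39, -1.59, -2.83 and -1.87, edgeR adjusted p = 0.00155, 0.0168, 0.00735 and 0.0253). For Car1 the untreated difference was 2.60 and the difference with DSS 0.21. The colonocyte genes Aqp4 and Guca2b were called higher (2.08 and 1.14, edgeR adjusted p = 0.0109 and 0.032). With each library left out, 2 (without untreated WT or KO library 3) to 6 (without DSS-treated KO library 2) colonocyte genes were called lower and 1 to 4 higher, with 4 without DSS-treated KO library 1. Clca4b, a calcium-activated chloride channel regulator of surface epithelium, was at 229 and 324 CPM in untreated WT, 1825, 953 and 1087 CPM in DSS-treated WT, 10.03 and 8.48 CPM in untreated KO and 1741, 1885 and 3114 CPM in DSS-treated KO libraries. DSS-treated libraries were higher than untreated ones in both genotypes, from a level in untreated KO far below that in untreated WT, and the interaction was 5.71 (SE 0.50, edgeR adjusted p = 0.000755, share 0.86). The counts of colonocyte and tight junction genes stand against 13.8% called higher and 13% called lower of all tested genes. Of 14 tight junction genes 1 was called higher, Cldn8 (1.33), and 2 lower, Ocln (-0.60) and Cgn (-0.68). Tjp1 and Cldn1 did not pass (-0.45 and -1.32, edgeR adjusted p = 0.157 and 0.235). Neither lower call remained without untreated WT library 2 or untreated KO library 2.

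Plet1, a surface protein of regenerating epithelium, was at 1.29 and 2.04 CPM in untreated WT, 73.0, 22.6 and 14.9 CPM in DSS-treated WT, 1.44 and 0.801 CPM in untreated KO and 506, 444 and 713 CPM in DSS-treated KO libraries. Untreated groups were low and overlapped, DSS-treated WT libraries were above them, and every DSS-treated KO library was far above every DSS-treated WT library (interaction 4.50, SE 0.93, edgeR adjusted p = 0.00824). Cers3, a ceramide synthase of barrier lipids, and Krt90, a keratin, had interactions of 5.79 and 5.53 (edgeR adjusted p = 0.00978 and 0.0436), with untreated shares of 0.01 and 0.14. Cers3 missed the threshold without untreated WT library 2 (edgeR adjusted p = 0.06), and Krt90 was called in 5 of the 10 fits with a library left out (edgeR adjusted p up to 0.16). Krt13, a keratin of stratified epithelium, was at 0.772 and 1.28 CPM in untreated WT, 0.523, 0.526 and 1.52 CPM in DSS-treated WT, 0.119 and 0 CPM in untreated KO and 6.45, 4.92 and 5.70 CPM in DSS-treated KO libraries (interaction 6.97, edgeR adjusted p = 0.00304). Of 10 squamous markers 3 were called higher and 0 lower, against 13.8% and 13% of all tested genes, and 7 did not pass. In 6 of the 10 the interaction was positive. The list's median was 1.21, and 0.69 to 3.69 with each library left out. The summed squamous level was 12.3 to 15.7 CPM without and 12.4 to 20.7 CPM with DSS in WT libraries, and 6.89 to 7.06 CPM without and 50.6 to 84.9 CPM with DSS in KO libraries, and the part of anal or rectal tissue in it was not tested.

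Xenobiotic enzymes were called lower in 8 of 13 and higher in 0 (median -1.22), with 4 called lower without untreated WT library 2 or untreated KO library 3. Cyp2c55 (gene ID 72082, chromosome 19, 39006940 to 39042690), a colonic cytochrome P450, was at 17.8 and 15.1 CPM in untreated WT, 10.7, 5.62 and 22.8 CPM in DSS-treated WT, 183 and 489.6 CPM in untreated KO and 1.79, 1.66 and 2.12 CPM in DSS-treated KO libraries. Untreated KO libraries were far above every WT library and DSS-treated KO libraries below, and the WT groups overlapped. Its interaction of -7.17 (SE 0.83, edgeR adjusted p = 0.00127) was made of 4.35 before and -2.82 with DSS. The drug efflux pump Abcb1a (-3.39), Cyp2c65 (-3.17) and the sulfotransferase Sult1a1 (-1.87) were also called lower (edgeR adjusted p = 0.00143, 0.00688 and 0.0248). Slc30a10, a manganese exporter, was at 13.1 and 48.5 CPM in untreated KO against 2.19 and 1.69 CPM in untreated WT libraries (interaction -5.29, edgeR adjusted p = 0.00194, share 0.75). Among genes of fatty acid oxidation and ketogenesis 5 of 14 were called lower, and 2 without any 1 of the 4 untreated libraries.

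Smooth muscle genes were called lower in 16 of 16, also with each library left out in turn, with a median interaction of -3.39. Their median difference was 1.26 before DSS (11 called higher) and -2.13 with DSS (16 called lower), and their median response was -0.13 in WT and -3.56 in KO mice. In all 16 genes every WT library lay between the KO groups, with untreated KO highest. The same order held in 7.5% of all tested genes and in 1352 of the 2652 genes called lower. A call in the interaction favours it, so it is no separate support. Actg2, the actin of gut muscle, was at 262 and 592 CPM in untreated WT, 292, 645 and 238 CPM in DSS-treated WT, 965 and 1378 CPM in untreated KO and 37.8, 69.8 and 45.3 CPM in DSS-treated KO libraries. The 2 KO groups were the extremes and did not overlap any WT library (interaction -4.40, SE 0.70, edgeR adjusted p = 0.00309). Flnc, which crosslinks actin in muscle, was at 35.5 and 47.8 CPM in untreated WT, 56.2, 51.6 and 62.8 CPM in DSS-treated WT, 214 and 227 CPM in untreated KO and 7.86, 10.5 and 11.1 CPM in DSS-treated KO libraries. Its interaction was -4.94 (SE 0.26, edgeR adjusted p = 5.04e-05), the genotype difference passing from 2.41 to -2.54. The summed smooth muscle level was 4921 to 7372 CPM without and 4259 to 7478 CPM with DSS in WT libraries, and 13617 to 16059 CPM without and 1286 to 1867 CPM with DSS in KO libraries, and the share of muscle in each tissue piece, and its part in other results, was not tested.

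Genes of enteric neurons and glia, which lie largely between the muscle layers, were called lower in 14 of 17 and higher in 0 (median -2.01). With DSS, 7 were called lower and 1 higher in KO than in WT. The summed level was 99.5 to 110 CPM without and 139 to 170 CPM with DSS in WT libraries. In KO libraries it was 216 to 255 CPM without and 135 to 262 CPM with DSS, so the KO groups overlapped in the sum. The glial gene S100b was at 1.08 and 1.45 CPM in untreated WT, 1.08, 1.13 and 1.36 CPM in DSS-treated WT, 2.43 and 3.30 CPM in untreated KO and 0.363, 0.251 and 0.252 CPM in DSS-treated KO libraries (interaction -3.21, SE 0.43, edgeR adjusted p = 0.00171), and untreated KO was above untreated WT. Nos1 and Chrna3, genes of inhibitory and cholinergic transmission, had interactions of -2.59 and -2.83 (edgeR adjusted p = 0.00278 and 0.00247), while Tac1 did not pass (0.85, edgeR adjusted p = 0.362). The number called was 8 or 9 without either untreated WT library or without untreated KO library 3. Fibroblast and collagen genes gave 2 calls of 12, both lower, near the 13% of all tested genes called lower. These were Fn1, fibronectin, and Postn (-2.44 and -1.88, edgeR adjusted p = 0.0193 and 0.0241). The other 10 did not pass, among them Col1a1 (-0.79, edgeR adjusted p = 0.527). None (0) was called without untreated WT library 2 or untreated KO library 3.

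**Figure D4:**
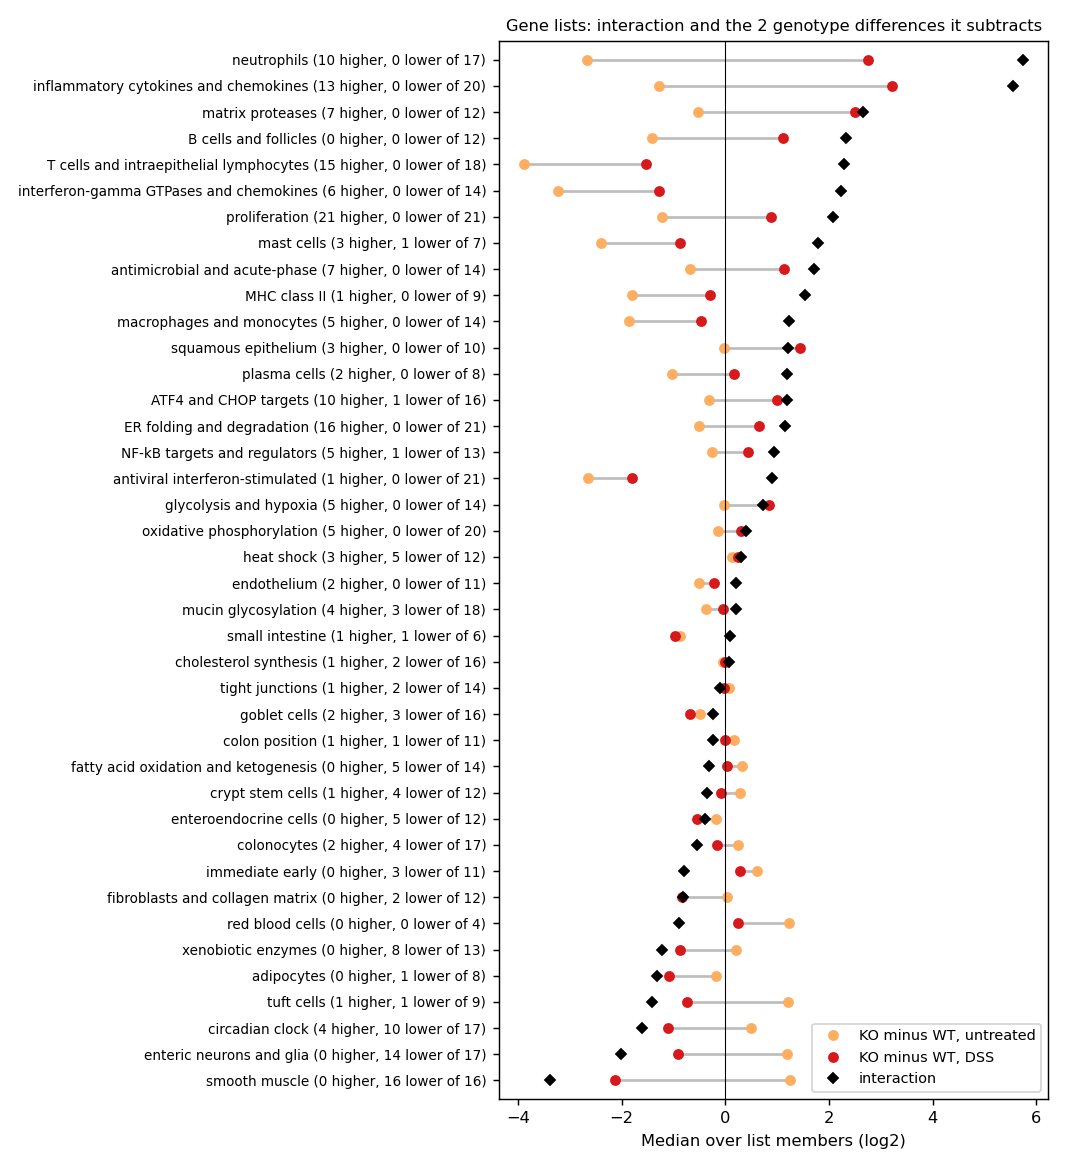
Median over the tested members of each of 40 gene lists of the interaction (black), the untreated KO minus WT difference (orange) and the DSS-treated difference (red), on the log2 scale, with counts called higher and lower beside each name. Inflammatory lists reach above 5 and smooth muscle lies at -3.39, and for T cell and interferon lists both genotype differences are below 0.

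The circadian clock genes differed in response more than most lists, with 10 called lower and 4 higher of 17, and 3 to 4 higher and 10 to 11 lower with each library left out. Dbp (gene ID 13170, chromosome 7, 45705100 to 45710203), an output factor of the clock, was at 41.5 and 35.9 CPM in untreated WT, 48.7, 69.5 and 51.8 CPM in DSS-treated WT, 119 and 122 CPM in untreated KO and 3.33, 8.59 and 5.91 CPM in DSS-treated KO libraries. Untreated KO libraries were above and DSS-treated KO libraries below every WT library, an interaction of -4.90 (SE 0.46, edgeR adjusted p = 0.000813). The output factors Tef and Hlf and the repressors Per2, Per3, Ciart and Nr1d1 were lower as well (-2.48, -2.72, -1.61, -3.07, -3.09 and -2.28, edgeR adjusted p = 0.00235, 0.00244, 0.00292, 0.00143, 0.00171 and 0.01). Nfil3, which opposes the output factors, and Cry1 were higher (2.12 and 1.75, edgeR adjusted p = 0.014 and 0.00389).

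Arntl (gene ID 11865, chromosome 7, 113178471 to 113314126), which encodes the clock activator BMAL1, was at 25.8 and 26.5 CPM in untreated WT, 11.04, 11.1 and 11.2 CPM in DSS-treated WT, 25.1 and 26.6 CPM in untreated KO and 25.1, 24.4 and 27.0 CPM in DSS-treated KO libraries. All 7 libraries outside DSS-treated WT lay between 24.4 and 27.0 CPM, and the 3 DSS-treated WT libraries at 11.04 to 11.2 CPM. Arntl was the gene called as lower in WT mice (-1.23, SE 0.10, edgeR adjusted p = 0.00463), its KO response was -0.02, and its interaction 1.21 (SE 0.14, edgeR adjusted p = 0.00121) had an untreated share of 0.01. The labels give a day but no hour of collection, and a difference in hour between groups was not tested.

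The E-box letters CACGTG, to which BMAL1 binds with CLOCK, stood in the windows of 5 of 15 clock genes with a window and in 10.3% and 10.5% of genes called higher and lower, against 10.4% of tested genes. The D-box letters TTATGTAA, the site of Dbp, Tef, Hlf and Nfil3, stood in 1 of the 15, Per3, and in 0.837% of tested genes. Shown are 2 E-box stretches from genes called lower, 1 from Cry1, which was called higher, and the D-box stretch.
Ciart (chr3:95882299-95882384, minus strand): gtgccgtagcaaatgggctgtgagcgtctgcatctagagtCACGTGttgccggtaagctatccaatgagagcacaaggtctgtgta
Per1 (chr11:69098743-69098828, plus strand): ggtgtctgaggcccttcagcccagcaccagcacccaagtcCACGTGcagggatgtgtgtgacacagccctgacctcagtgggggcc
Cry1 (chr10:85185069-85185154, minus strand): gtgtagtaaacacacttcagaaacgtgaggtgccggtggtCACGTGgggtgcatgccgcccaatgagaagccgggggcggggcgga
Per3 (chr4:151044823-151044910, minus strand): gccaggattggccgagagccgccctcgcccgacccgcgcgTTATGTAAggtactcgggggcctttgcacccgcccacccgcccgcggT
The E-box is thus present upstream of genes of either direction. The last capital of the Per3 stretch is where its second match begins. Per1 had an interaction of -1.16 (edgeR adjusted p = 0.00447).

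Beside Arntl and Nos2, 3 genes were called in the WT response, all with a higher level in DSS-treated WT. Zbtb16, a transcription factor induced by glucocorticoids, was at 6.98 and 5.36 CPM in untreated WT, 25.8, 24.4 and 27.7 CPM in DSS-treated WT, 12.3 and 12.6 CPM in untreated KO and 11.1, 13.8 and 8.73 CPM in DSS-treated KO libraries. DSS-treated WT libraries were the highest, and the KO groups overlapped between them and untreated WT (WT response 2.07, KO response -0.15, interaction -2.22, SE 0.28, edgeR adjusted p = 0.00155). Ppm1l, a protein phosphatase, was at 2.57 and 3.12 CPM in untreated WT, 17.5, 14.5 and 15.9 CPM in DSS-treated WT, 18.5 and 22.5 CPM in untreated KO and 17.7, 16.1 and 23.6 CPM in DSS-treated KO libraries. Here the untreated WT libraries stood alone, at 2.57 and 3.12 CPM against at least 14.5 CPM in the other 8. Its interaction of -2.59 (SE 0.27, edgeR adjusted p = 0.00107) had an untreated share of 1.10.

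Slc13a2os, a non-coding gene antisense to a citrate carrier, was at 0 and 0 CPM in untreated WT, 2.36, 1.53 and 1.35 CPM in DSS-treated WT, 1.58 and 1.06 CPM in untreated KO and 0.741, 1.12 and 1.77 CPM in DSS-treated KO libraries. DSS-treated WT was at least 71.7-fold higher than the limit of 3 counts over the untreated WT group (interaction edgeR adjusted p = 0.00155), and its reads may not have been told from those of the opposite strand. The genes with the same direction and a smaller response in KO were Arntl, Lrmda, Igkv5-39, Gm8221 and TrnL1, all 5 listed here after their values were seen. TrnL1, a mitochondrial transfer RNA, was at 13.9 and 17.3 CPM in untreated WT, 27.6, 31.8 and 33.5 CPM in DSS-treated WT, 32.9 and 23.7 CPM in untreated KO and 25.9, 27.5 and 35.9 CPM in DSS-treated KO libraries (interaction -0.92, SE 0.27, edgeR adjusted p = 0.0322). That call was lost in 6 of the 10 fits with a library left out (edgeR adjusted p up to 0.135).

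In genes with an untreated share of at least 0.8, the interaction was by definition made mainly of the untreated difference. Sirpb1c, a receptor of myeloid cells, was at 1.75 and 1.76 CPM in untreated WT, 1.86, 3.44 and 2.62 CPM in DSS-treated WT, 0 and 0.0429 CPM in untreated KO and 3.38, 3.20 and 1.98 CPM in DSS-treated KO libraries, an interaction of 6.17 with a share of 0.98 (edgeR adjusted p = 0.00155). DSS-treated KO libraries overlapped DSS-treated WT, and related genes such as Sirpb1a may share its reads. Serpina3f, a protease inhibitor, had a share of 0.94 (interaction 5.32, edgeR adjusted p = 0.00268). Fam189a2, a membrane protein gene, was at 9.41 and 6.49 CPM in untreated WT, 9.25, 7.86 and 7.55 CPM in DSS-treated WT, 60.0 and 51.8 CPM in untreated KO and 5.53, 6.55 and 6.69 CPM in DSS-treated KO libraries. It stood apart in untreated KO alone, and its interaction was -3.21 (SE 0.26, edgeR adjusted p = 0.000755, share 0.88). Edn2, a vasoconstrictor peptide, Fxyd4, a regulator of the sodium pump, and Fndc5 were lower in the same way (shares 0.98, 1.17 and 0.86; interactions -3.37, -2.82 and -3.02; edgeR adjusted p = 0.0113, 0.00578 and 0.0166). The calls of Edn2 and Fndc5 were lost without untreated WT library 3 or untreated KO library 3 (edgeR adjusted p up to 0.0568 and 0.077).

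In genes with an untreated share of 0.2 or less in size, the interaction was by definition made mainly of the DSS-treated difference. Rasd2, a small GTPase gene, was at 19.9 and 19.9 CPM in untreated WT, 20.2, 19.96 and 17.2 CPM in DSS-treated WT, 22.3 and 28.3 CPM in untreated KO and 2.18, 4.22 and 3.62 CPM in DSS-treated KO libraries. The WT groups overlapped, untreated KO was slightly above them, and DSS-treated KO was the lowest (interaction -2.87, SE 0.34, edgeR adjusted p = 0.00138, share 0.12). Abca8a, a lipid transporter, Mfap4, a microfibril protein, and Dpp10, a potassium channel subunit, followed this form (interactions -2.84, -3.48 and -5.28; shares 0.15, 0.17 and 0.12; edgeR adjusted p = 0.00166, 0.011 and 0.00278), and Mfap4 missed the threshold without untreated WT library 2 (edgeR adjusted p = 0.0541). Arg1, arginase, was at 0.354 and 0.329 CPM in untreated WT, 0.381, 0.842 and 0.467 CPM in DSS-treated WT, 0.356 and 0.272 CPM in untreated KO and 13.3, 3.78 and 2.65 CPM in DSS-treated KO libraries, with DSS-treated KO libraries alone above the rest, an interaction of 3.68 (SE 0.99, edgeR adjusted p = 0.0237) that was called in 6 of the 10 fits with a library left out (edgeR adjusted p up to 0.0947).

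Of further genes the study names for mouse colon, the vesicle coat gene Sec31b (-2.42) and the sialyltransferase gene St3gal2 (-1.98) were lower in response in KO (edgeR adjusted p = 0.006 and 0.0093). Galnt5, which starts mucin glycosylation, was lower in KO in both treatments, at 32.9 and 34.7 CPM in untreated WT, 38.7, 38.2 and 35.3 CPM in DSS-treated WT, 21.0 and 20.8 CPM in untreated KO and 16.4, 16.9 and 17.1 CPM in DSS-treated KO libraries, and its interaction was -0.46 (SE 0.13, edgeR adjusted p = 0.0267). Il10, an anti-inflammatory cytokine, was at 0.611 and 0.822 CPM in untreated WT, 0.555, 0.631 and 0.769 CPM in DSS-treated WT, 0 and 0.172 CPM in untreated KO and 1.19, 0.653 and 0.757 CPM in DSS-treated KO libraries, with untreated KO libraries below all others (interaction 3.33, SE 0.99, edgeR adjusted p = 0.0341). The calls of Il10 and Galnt5 were each lost in 6 of the 10 fits with a library left out (edgeR adjusted p up to 0.106 and 0.111). Tram1l1 did not pass (-1.58, edgeR adjusted p = 0.0575).

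The rule for names also gave genes that stand in none of the accounts above. Chil3, a chitinase-like protein of alternatively activated macrophages, was at 0.772 and 0.624 CPM in untreated WT, 0.968, 1.92 and 2.24 CPM in DSS-treated WT, 0.0395 and 0 CPM in untreated KO and 21.3, 5.84 and 2.12 CPM in DSS-treated KO libraries, and its interaction was 7.72 (SE 1.64, edgeR adjusted p = 0.0093). Untreated KO libraries were the lowest, DSS-treated KO library 4 overlapped DSS-treated WT, and the call was lost without untreated KO library 3 (edgeR adjusted p = 0.0557). Spink6, a protease inhibitor of epithelium, was at 0.129 and 0 CPM in untreated WT, 0.666, 0.706 and 0.302 CPM in DSS-treated WT, 0 and 0 CPM in untreated KO and 8.29, 7.15 and 8.94 CPM in DSS-treated KO libraries. Untreated libraries of both genotypes were at or near 0, and DSS-treated KO libraries were the highest. Its interaction passed (edgeR adjusted p = 0.0113), but the edgeR adjusted p was 1 without untreated WT library 2. Il5ra, the interleukin-5 receptor of eosinophils and B cells, had an interaction of 6.79 (edgeR adjusted p = 0.00304). On the lower side, the kallikrein gene Klk15 (-5.90), the collagen gene Col8a2 (-5.11), the keratin gene Krt17 (-6.17), the cytochrome P450 gene Cyp2d12 (-4.39), Scube2, which helps release hedgehog ligands (-4.04), and Hsp25-ps1, a copy of the small heat shock gene Hspb1 whose reads may be shared with it (-2.64), passed (edgeR adjusted p = 0.00447, 0.00508, 0.00362, 0.00157, 0.00161 and 0.00235).

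For the remaining lists, counts stand against 13.8% called higher and 13% called lower of all tested genes. Enteroendocrine genes were called lower in 5 of 12 and higher in 0 (median -0.40), among them Scg2, a granin (-2.59), and Sst, somatostatin (-1.77), with edgeR adjusted p = 0.00208 and 0.0121. The number was 2 without untreated WT library 2. Of 12 crypt stem cell genes 4 were called lower and 1 higher (median -0.36), and Lgr5, the defining receptor of these cells, did not pass (-0.35, edgeR adjusted p = 0.562). With each library left out, 2 to 4 stem cell genes were called lower and 0 or 1 higher. Genes of oxidative phosphorylation were called higher in 5 of 20 (median 0.39) and those of glycolysis and hypoxia in 5 of 14 (median 0.72), led by the glycolysis regulator Pfkfb3 (3.06, edgeR adjusted p = 0.006), and 0 were lower in either. Without DSS-treated KO library 1, 12 oxidative phosphorylation genes were called, and 1 without untreated WT library 3 or untreated KO library 3.

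Mucin glycosylation genes had 4 higher and 3 lower calls of 18, cholesterol synthesis genes 1 and 2 of 16, tuft cell genes 1 and 1 of 9, small intestine genes 1 and 1 of 6, and colon position genes 1 and 1 of 11. Endothelial genes had 2 higher calls of 11, plasma cell genes 2 of 8, and neither had a lower one. Immediate early genes had 3 lower calls of 11 and adipocyte genes 1 of 8, and neither had a higher one. With a library left out, 3 to 5 mucin glycosylation genes were called higher and 1 to 3 lower, and 1 to 5 immediate early genes lower. Either count of the cholesterol, tuft cell, small intestine, colon position, endothelial, plasma cell and adipocyte lists moved by at most 2. None of the 4 hemoglobin genes passed in edgeR (0 at an unadjusted p under 0.05) or DESeq2 (0).

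With each library left out in turn, the number of genes called moved most for the untreated libraries, of which each genotype has 2. The count ran from 2824 (without untreated WT library 3) to 5877 (without DSS-treated KO library 1), and it was 2911, 3208 and 3330 without untreated KO library 3, untreated WT library 2 and untreated KO library 2. Where a library was left out of an untreated group, the library that remained was taken to vary like those of the other groups. Of the 5482 genes, 2232 were called in all 11 fits, 1123 higher and 1109 lower, with a median untreated share of 0.44. Every one of the 5482 kept its sign in each fit in which it had a value. On the CPM scale, where responses are differences of mean levels, 5480 of the 5482 had the same sign, the exceptions being Cytl1 and Sirpb1a.

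**Figure D5:**
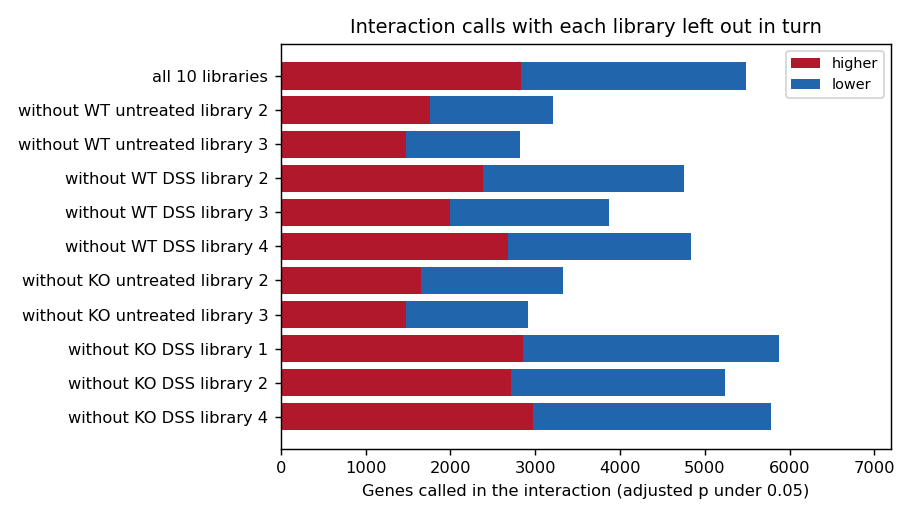
Number of genes called in the interaction (bar length, starting at 0) with all 10 libraries and with each left out in turn, split into higher (red) and lower (blue). The count falls to 2824 to 3330 without an untreated library and stays between 3873 and 5877 without a DSS-treated one.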

How the data were processed

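Total RNA of mouse colon was sequenced by the authors from TruSeq Stranded mRNA libraries. Per the labels, the reads were trimmed with Trimmomatic 0.38 and processed with HISAT2 2.1.0, Bowtie2 2.3.4.1 and StringTie 2.1.3b on mm10. The deposited values used were the authors' raw read counts per gene, not normalized. The sources used here do not give how the counting treated strand and multimapped reads, so antisense and near-identical genes are uncertain. Library numbers are those of the table's columns, which differ from those in the titles of the samples. From the same table, 30 other per-sample columns, 4 columns of the authors' means and 8 of their comparisons (fold changes and p-values) were not used.

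Counts were filtered by edgeR's expression filter, scaled by TMM (factors 0.874 to 1.055) and fitted in edgeR 4.0.16 (limma 3.58.1, R 4.3.3) with 1 mean per group over all 10 libraries. The contrasts were tested by quasi-likelihood, and adjustment was by the Benjamini-Hochberg procedure over all 20472 tested genes. DESeq2 1.42.0 was an alternative. The limit of a count of 0 was 3 counts over a group and covers counting error only. Each SE was derived from the quasi-likelihood F statistic, so it includes the spread between libraries. Counts of 20472 genes were simulated with the same mean in every group. In DSS-treated KO alone, 67 genes were changed 1.5-fold, 67 were changed 2-fold and 66 were changed 4-fold. The interaction test found 0, 5 and 26 of these and made 2 false calls. Far fewer genes were changed there than the 5482 called in the data, so the adjusted threshold was stricter. The shares found therefore do not give the power of the test in the data.

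Named genes were the 5 with the largest interaction, higher and lower, in each class of response or untreated share among called genes whose mean log2 CPM reached 1, the genes called in WT mice and the genes the study names. List members were named in addition. A few genes are not reported here and remain in the counts. The members, lists (40, with 544 tested genes) and tests were chosen with earlier results of these data known. Deviations of same-numbered libraries of different groups had correlations of -0.12 to 0.14 (10 pairs, 2 over 0.1), against -0.14 to 0.16 for other pairs. No pairing was assumed. The deviations in a group of 2 libraries mirror each other, so the pairs are not independent and the check cannot decide on pairing. Alternatives were other scalings, filters and thresholds, DESeq2, a block on library number and each library left out. Promoter windows were RefSeq's for GRCm38.p6 (14569 tested genes with a window).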

Additional observations from a re-analysis of the deposited data

Results flagged for a closer look

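The response to DSS differed between KO and WT mice by the interaction test in 5482 genes. Among the genes called in the WT response, the test of the difference itself was passed by Arntl (1.21 on the log2 scale), Nos2 (4.88), Zbtb16 (-2.22), Ppm1l (-2.59) and Slc13a2os (-9.89). For Slc13a2os the value is fitted against untreated WT libraries at 0 and depends on the prior count, so it is no estimate of size. Groups of 2 or 3 libraries were not tested for a library that stood apart.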

How the results depend on the processing

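On the log2 scale no called or named interaction reversed its sign under any alternative in which it had a value. On the CPM scale the called Cytl1 and Sirpb1a and Dnajc10, which was not called, had the other sign. Of the calls, 2232 of 5482 held in all 10 fits with a library left out. With 2 untreated libraries a genotype, genes that did not pass are not shown to respond alike. The cause of each shift below was not tested.

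With a library left out in turn, the interaction called 2824 to 5877 genes (1477 to 2978 higher, 1347 to 3026 lower), of which 904 to 2199 were larger, 1 to 8 smaller and 1758 to 3776 reversed in KO, and 1208 to 2449 had an untreated share above 0.5. The WT response then called 0 (without untreated WT library 3) to 9 genes, the KO response 5623 to 9133, the untreated comparison 304 (without untreated KO library 3) to 2900, and the DSS-treated comparison 3237 (without DSS-treated WT library 3) to 5767. Scaling by RLE factors gave 5421 interaction calls, no filter 4913, at least 10 counts in every library 5426, and DESeq2 6601. DESeq2 also gave 12 smaller responses, 173 WT response calls and 3524 untreated calls. At an adjusted p under 0.1, 13 responses were smaller, and 8 and 3528 genes were called in the WT response and the untreated comparison.

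At the study's threshold (unadjusted p under 0.01 and over 3-fold), 2285 genes were called, 822 higher and 1463 lower, with 863 larger, 2 smaller and 1420 reversed responses and 1151 shares above 0.5. The WT and KO responses then called 86 and 2841 genes, and the untreated and DSS-treated comparisons 977 and 890. The split of the interaction calls thus moved from 2830 higher and 2652 lower towards lower.

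Library numbers were not taken to pair the libraries. With the replicate block the interaction called 4355 genes, 3923 of them among the 5482, the WT response 0 and the DSS-treated comparison 3622. Under the block the calls of TrnL1, Krt90, Fndc5, Il6, Il10 and Galnt5 were among those lost, and S100a9 passed. Of the gene lists, the block moved the number called from 15 to 7 for T cells, from 1 to 6 for antiviral and from 6 to 11 for interferon-gamma genes. DESeq2 gave no adjusted p for Ccl3 and called S100a8, S100a9, Xbp1 and Hsph1. Without untreated WT library 2 or 3, 12 calls of genes under the rule for names were lost each, and 8 and 11 without untreated KO library 2 and 3.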

Other observations

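Genes outside the lists and outside the rule for names, chosen after their values were seen, give further detail of the response in KO mice. Lrg1, a secreted acute-phase glycoprotein, was at 2.86 and 1.97 CPM in untreated WT, 72.9, 14.1 and 53.6 CPM in DSS-treated WT, 0.830 and 1.29 CPM in untreated KO and 559, 301 and 697 CPM in DSS-treated KO libraries, with an interaction of 4.64 (SE 0.92, edgeR adjusted p = 0.0067). Socs3, a feedback inhibitor of STAT3 signalling, was at 35.0 and 22.6 CPM in untreated WT, 112, 38.4 and 79.7 CPM in DSS-treated WT, 8.96 and 6.61 CPM in untreated KO and 182, 81.9 and 466 CPM in DSS-treated KO libraries, with an interaction of 3.55 (SE 0.93, edgeR adjusted p = 0.021). Ido1, which degrades tryptophan, was at 189.9 and 285 CPM in untreated WT, 78.7, 185 and 349 CPM in DSS-treated WT, 7.20 and 3.63 CPM in untreated KO and 32.9, 112 and 169 CPM in DSS-treated KO libraries, an interaction of 4.50 (SE 1.03, edgeR adjusted p = 0.0122, share 1.21).

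On the lower side, Pck1, the rate-limiting enzyme of gluconeogenesis, was at 49.6 and 38.9 CPM in untreated WT, 70.4, 67.1 and 43.1 CPM in DSS-treated WT, 159 and 157 CPM in untreated KO and 11.9, 25.3 and 16.2 CPM in DSS-treated KO libraries, with an interaction of -3.59 (SE 0.43, edgeR adjusted p = 0.00143). Mptx1, a pentraxin of the mucosa, was at 830.1 and 383 CPM in untreated WT, 337, 78.0 and 327 CPM in DSS-treated WT, 1532 and 2019.7 CPM in untreated KO and 11.2, 31.1 and 73.3 CPM in DSS-treated KO libraries (interaction -4.24, SE 1.11, edgeR adjusted p = 0.0208). Selenop, the selenium transport protein, was at 677 and 476 CPM in untreated WT, 673, 859 and 504 CPM in DSS-treated WT, 1198 and 1257 CPM in untreated KO and 109.7, 271 and 232 CPM in DSS-treated KO libraries (interaction -2.82, SE 0.50, edgeR adjusted p = 0.0046).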
